A study of Mus musculus with 30 samples.

Results

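The genes described here make, carry, store, remove or break down serotonin in the mouse brain, and comprised 10 of the 19737 genes in the deposited table. They were chosen by name, as genes of serotonin neurons and of monoamine handling together with the target of fluoxetine, and all 10 passed the filter on low values in every comparison. *Tph2* encodes the brain form of tryptophan hydroxylase, the rate-limiting enzyme of serotonin synthesis, *Ddc* encodes the decarboxylase of the next step, and *Gch1* starts the synthesis of tetrahydrobiopterin, the cofactor of the hydroxylase. *Fev* encodes Pet-1, an ETS transcription factor of serotonin neurons. *Slc6a4* encodes the serotonin transporter that fluoxetine blocks, *Slc18a2* encodes the vesicular transporter VMAT2, and *Slc22a3* and *Slc29a4* encode the low-affinity transporters OCT3 and PMAT. *Maoa* and *Maob* encode the monoamine oxidases.

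Serotonin neurons of the brain have their cell bodies in the raphe nuclei of the midbrain and hindbrain and send axons through the whole brain. In RNA of the adult whole brain, *Tph2*, *Slc6a4* and *Fev* therefore come mainly from a small caudal cell group. *Ddc*, *Slc18a2* and *Gch1* are shared with dopamine and noradrenaline neurons. The oxidases and low-affinity transporters are also made by other neurons, astrocytes and vascular cells. Fewer cells of a type and less RNA per cell cannot be told apart in whole-brain samples.

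RNA was sequenced from the whole brains of 30 male C57BL/6N mice, 5 in each of 6 groups. WT-P10 and HT-P10 were untreated wild-type and Arid1b+/- mice at P10. The HT mice carry 1 copy of *Arid1b*, a chromatin remodelling gene, with a protein-truncating germline mutation made by CRISPR in exon 5. The other 4 groups were taken at P120, and had received, through the milk of dams drinking 0.2% saccharin water from P3 to P21, either vehicle (WT-Veh-P120, HT-Veh-P120) or fluoxetine given to the dams at 0.1 mg/ml (WT-Flx-P120, HT-Flx-P120), and normal water after weaning. Litters are not given, so mice of a group may share 1. Values are normalized counts as deposited, in which the read depth is unknown, and they summed to between 31578614 and 41801037 per library.

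*Arid1b* followed the genotype labels in 28 of 30 libraries. At P10 it lay between 2162 and 2334 normalized counts in HT and between 3164 and 3309 in WT. The library labelled HT-Veh-P120 replicate 2 held 3361, a WT level, and the library labelled WT-Veh-P120 replicate 2 held 2320, an HT level. Both were kept under their labels, and the calls that rest on them are given with and without them. Libraries also differed in how their values depended on GC content. The slope of a library's deviation from the mean of its age on GC content, in log2 units per 10 percentage points, lay between -0.17 and 0.04 at P10, between 0.29 and 0.69 in HT-Flx-P120 and between -0.40 and -0.31 in WT-Flx-P120, and it spanned -0.39 to 0.42 in HT-Veh-P120 and -0.26 to 0.19 in WT-Veh-P120. The fluoxetine groups of the 2 genotypes thus did not overlap in this measure.

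The promoters of the 3 genes most restricted to serotonin neurons are shown because these genes mark the cells that make serotonin, and because a motif of ETS factors such as Pet-1 could be looked for in them. The 250 bases before the RefSeq transcription start (GRCm38.p6) are given 5′ to 3′ on the gene's strand, with GGAAG, or CTTCC where it lies on the other strand, in capitals. *Tph2* lies on the minus strand (chr10:115185023-115185272), *Slc6a4* on the plus strand (chr11:76998347-76998596) and *Fev* on the minus strand (chr1:74885409-74885658).
Tph2: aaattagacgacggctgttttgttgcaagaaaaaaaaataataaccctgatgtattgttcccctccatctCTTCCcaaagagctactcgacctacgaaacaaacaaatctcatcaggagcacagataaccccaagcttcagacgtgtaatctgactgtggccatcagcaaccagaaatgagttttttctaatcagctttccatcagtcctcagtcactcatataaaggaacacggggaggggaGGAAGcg
Slc6a4: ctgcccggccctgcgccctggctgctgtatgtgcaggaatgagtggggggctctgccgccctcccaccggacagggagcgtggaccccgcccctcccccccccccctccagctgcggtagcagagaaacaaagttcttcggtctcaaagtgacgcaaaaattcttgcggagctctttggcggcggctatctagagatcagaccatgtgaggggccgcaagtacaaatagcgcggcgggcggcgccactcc
Fev: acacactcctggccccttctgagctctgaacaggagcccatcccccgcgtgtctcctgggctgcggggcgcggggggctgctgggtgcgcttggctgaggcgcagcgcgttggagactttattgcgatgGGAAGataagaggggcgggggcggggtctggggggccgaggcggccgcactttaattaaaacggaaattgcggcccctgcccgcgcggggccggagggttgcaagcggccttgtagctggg
GGAAG was found 2 times before *Tph2*, beginning 180 and 7 bases before the start, 1 time before *Fev*, beginning 121 bases before it, and 0 times before *Slc6a4*. These letters occurred on either strand in 64.1% of 32851 promoter windows of this length, so that their presence is common. The hexamer AGATAA, which factors of the Gata family recognize, was found 1 time before *Tph2* and 1 time before *Fev*, where it overlaps the GGAAG, against 9.99% of all windows. The windows also differed in base composition, with a GC content of 43.6% for *Tph2*, 64.8% for *Slc6a4* and 68% for *Fev*. A match of letters is not evidence of binding.

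The genes lie apart in the genome, except the 2 oxidase genes. In GRCm38, *Maoa* lies on the plus strand of the X chromosome (chrX:16619698-16687818) and *Maob* on the minus strand next to it (chrX:16709282-16817366), with their 3′ ends facing each other. *Tph2* spans chr10:115078641-115185022, *Ddc* chr11:11814101-11898144, *Gch1* chr14:47153895-47189413, *Fev* chr1:74881509-74885419, *Slc6a4* chr11:76998603-77032340, *Slc18a2* chr19:59260896-59296012, *Slc22a3* chr17:12418960-12507704 and *Slc29a4* chr5:142692512-142722490. The values cover whole genes, exons of all transcripts together.

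Levels were first compared between the genes, per kilobase of the longest transcript. In WT-P10 the highest level was that of *Slc29a4*, at 784 ± 121 normalized counts per kb (SD, n = 5), followed by *Maoa* at 386 ± 15.7 and *Ddc* at 228 ± 13.6. *Maob* (135 ± 5.78) and *Slc18a2* (125 ± 6.61) overlapped in range, as did *Slc6a4* (92.8 ± 8.13) with *Tph2* (74.1 ± 6.96) and *Tph2* with *Slc22a3* (62.3 ± 9.60). *Gch1* (24.6 ± 3.11) and *Fev* (10.1 ± 3.20) were lowest. In WT-Veh-P120 *Slc29a4* was again highest, at 418 ± 89.8 per kb, but *Maob* (287 ± 23.3) and *Ddc* (264 ± 84.9) now stood above *Maoa* (222 ± 29.8), with each neighbour in this order overlapping the next. The only neighbours that did not overlap in WT-Veh-P120 were *Maoa* and *Slc18a2* (99.0 ± 42.4).

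**Figure D1:**
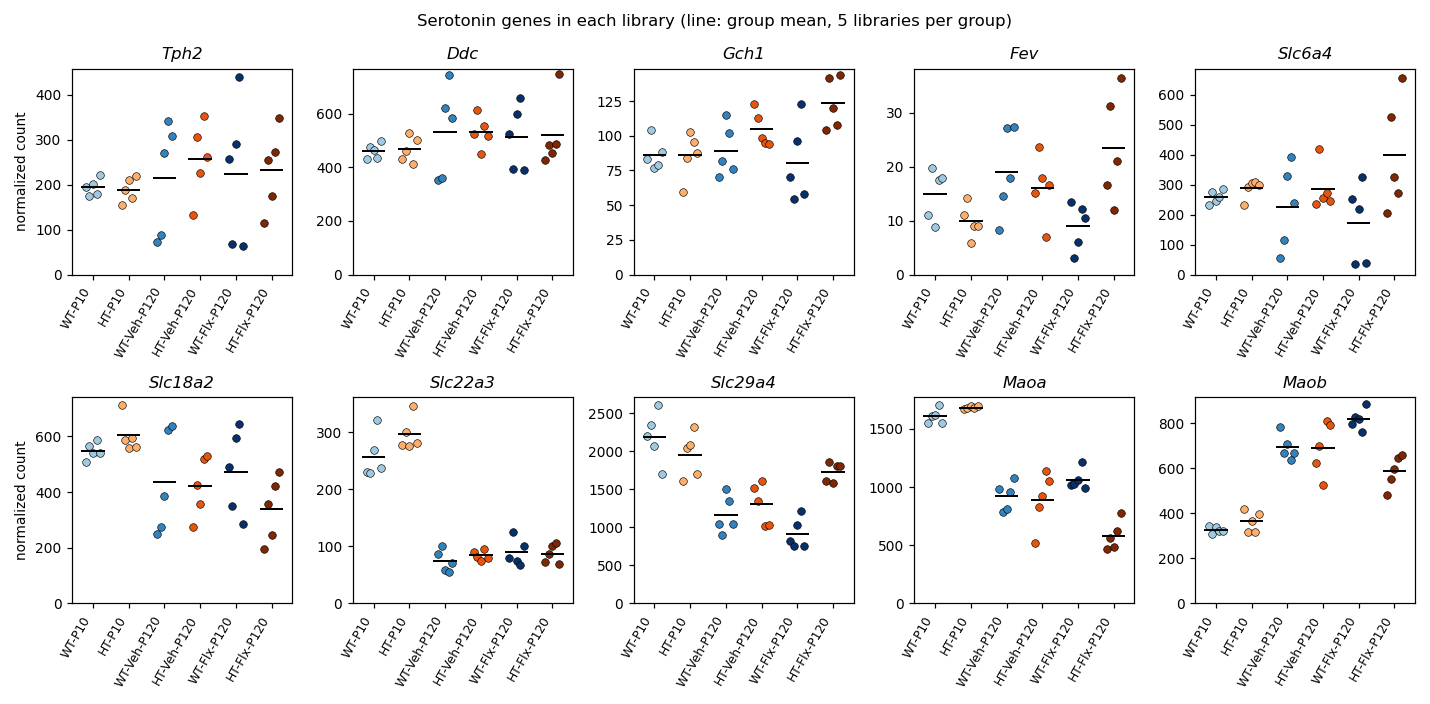
Normalized counts (vertical axes, linear from 0) of the 10 genes in each of 30 libraries, by group, with the group mean as a line. *Maoa*, *Slc22a3* and *Slc29a4* were lower and *Maob* higher at P120 than at P10, and *Tph2*, *Slc6a4* and *Fev* spread widely among P120 libraries, from 34.1 to 657 for *Slc6a4*.

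Between P10 and P120 the breakdown and low-affinity uptake genes changed and the synthesis genes did not pass the test. The question was which of these genes differ between the juvenile and the adult brain. Age cannot be told apart here from the vehicle that only the P120 mice received. Nor can it be told apart from any difference between the ages in how the libraries were made and sequenced. In WT, 4 of 10 genes passed limma's test at an adjusted p under 0.05, against 58.3% of all genes tested, 1 of them higher (28.9% of all genes) and 3 lower (29.4%). In HT, 5 of 10 passed (51.1% of all genes), 1 higher (25.8%) and 4 lower (25.3%). With 10 genes, neither an excess nor a lack against the shares over all genes can be read from these counts.

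*Maoa*, which encodes the oxidase that prefers serotonin and noradrenaline, read 1548, 1610, 1621, 1708 and 1551 normalized counts in WT-P10 and 984, 785, 814, 961 and 1082 in WT-Veh-P120. In HT it read 1667, 1682, 1693, 1680 and 1693 at P10 and 522, 825, 919, 1142 and 1055 in HT-Veh-P120. Every P120 vehicle library was below every P10 library in both genotypes. *Maoa* fell by 0.81 ± 0.09 (SE) on the log2 scale in WT (limma, adjusted p = 6.19e-06) and by 0.96 ± 0.18 in HT (adjusted p = 0.000617).

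*Maob*, which encodes the oxidase found in astrocytes and in serotonin neurons, moved the other way. Its WT libraries read 342, 309, 339, 320 and 321 at P10 and 782, 669, 708, 637 and 667 with vehicle at P120, without overlap. In HT they read 421, 319, 364, 317 and 399 at P10 and 623, 700, 525, 809 and 794 at P120. The rise was 1.08 ± 0.08 on the log2 scale in WT (limma, adjusted p = 1.50e-07) and 0.91 ± 0.14 in HT (adjusted p = 0.000193). As a description chosen after the values were seen, the ratio of *Maoa* to *Maob* within a library was 4.53 to 5.33 in WT-P10, 3.96 to 5.30 in HT-P10, 1.15 to 1.62 in WT-Veh-P120 and 0.84 to 1.75 in HT-Veh-P120, a 3.70-fold lower ratio at P120 in WT and 3.67-fold lower in HT.

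*Slc22a3*, the gene of a low-affinity monoamine transporter, changed most. It read 230, 228, 269, 321 and 237 in WT-P10 and 86.3, 100, 58, 55.2 and 70.3 in WT-Veh-P120, and in HT 278, 300, 275, 346 and 280 at P10 and 89.3, 81.8, 73.9, 95.4 and 79.3 at P120. All P120 values lay under all P10 values. It fell by 1.81 ± 0.17 in WT (limma, adjusted p = 1.73e-06) and by 1.81 ± 0.13 in HT (adjusted p = 2.86e-07), both on the log2 scale.

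*Slc29a4*, the other low-affinity transporter gene, read 1707 to 2614 (median 2205) in WT-P10 and 900 to 1506 (median 1041) in WT-Veh-P120, and fell by 0.92 ± 0.14 (limma, adjusted p = 0.000119). In HT it read 1605 to 2317 (median 2041) at P10 and 1023 to 1604 (median 1349) at P120, where the highest vehicle library lay just under the lowest P10 library, and it fell by 0.59 ± 0.15 (adjusted p = 0.00657). *Slc18a2*, the vesicular transporter gene, fell by 0.56 ± 0.17 in HT (adjusted p = 0.0166), from 559 to 714 at P10 to 274 to 530 at P120. In WT its ranges overlapped, 509 to 587 at P10 and 250 to 637 at P120, with a log2 difference of -0.44 ± 0.23 (adjusted p = 0.121).

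Without the 2 libraries that go against their labels the same counts were called, 4 in WT and 5 in HT. *Maoa* then fell by 0.75 in WT and 0.95 in HT, *Slc22a3* by 1.92 and 1.80 and *Slc29a4* by 0.83 and 0.61, and *Maob* rose by 1.09 and 0.90.

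The groups of the 2 ages did not overlap for 4 of 10 genes in WT (45.6% of all genes) and 5 of 10 in HT (40.2% of all genes), and these were the genes that passed the test. *Tph2* differed by -0.12 ± 0.39 in WT (adjusted p = 0.808) and 0.38 ± 0.23 in HT (adjusted p = 0.180), and *Slc6a4* by -0.50 ± 0.42 (adjusted p = 0.321) and -0.03 ± 0.16 (adjusted p = 0.879). The interaction of age and genotype called 0 of 10 and 0% of all genes by limma, with 612 of 17978 genes at an unadjusted p under 0.05. When values were corrected for GC content and length, *Maoa*, *Maob*, *Slc22a3* and *Slc29a4* passed in both genotypes, but *Maoa* then fell by 0.43 in WT and 0.47 in HT, and in HT 8 of 10 genes passed, including *Tph2* at 0.58 (adjusted p = 0.0137), *Ddc* at 0.27 and *Gch1* at 0.59. With the hindbrain and spinal cord list described below as a covariate, *Slc18a2* did not pass in HT (-0.43, adjusted p = 0.132), while in WT both *Slc18a2* (-0.57, adjusted p = 0.0249) and *Slc6a4* (-0.79, adjusted p = 0.0282) did.

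Markers of other cell types also differed between the ages. Of 7 endothelial and pericyte genes 1 was higher and 6 lower at P120 in WT and 1 higher and 3 lower in HT, of 6 choroid plexus genes 5 were higher and 1 lower in both, of 6 astrocyte genes 2 were higher and 1 lower in both, and of 8 general brain markers 4 were higher in WT and 6 in HT. Their part in the changes of *Maoa*, *Maob*, *Slc22a3* and *Slc29a4* was not tested.

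**Figure D2:**
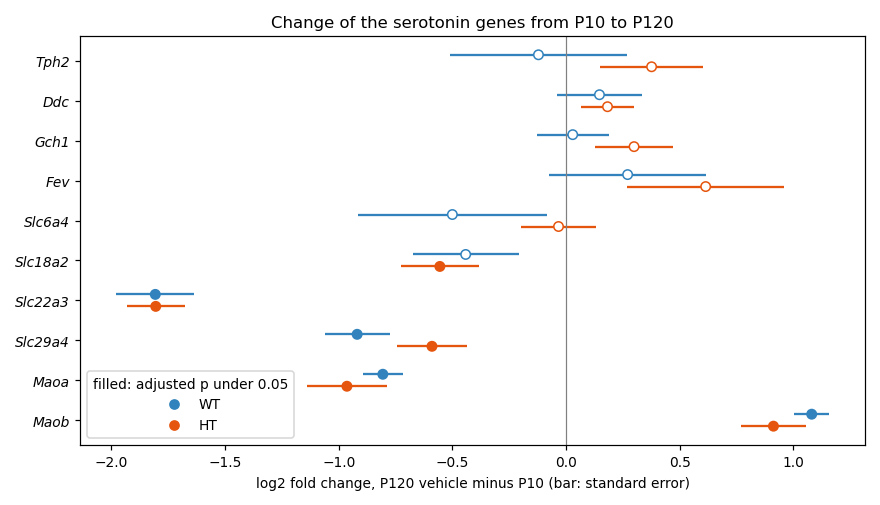
Log2 fold change from P10 to P120 vehicle (horizontal axis) of each gene in WT and HT, with standard errors, filled where the adjusted p was under 0.05. *Maob* rose by 1.08 in WT and 0.91 in HT, and *Slc22a3* fell by 1.81 in both.

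The wider pathway was read against the same background, 58.3% of all genes called in WT and 51.1% in HT. The GC correction was not examined for its lists. Of 7 tetrahydrobiopterin genes tested, 4 rose and 2 fell in WT and 4 rose and 1 fell in HT. *Qdpr*, whose product regenerates the cofactor, rose by 1.70 ± 0.11 in WT and 2.08 ± 0.14 in HT, *Spr*, the last enzyme of its synthesis, by 0.73 ± 0.09 and 1.02 ± 0.18, *Gchfr*, the regulator of GTP cyclohydrolase, by 0.71 ± 0.28 and 1.08 ± 0.32, and *Pcbd2* by 0.59 ± 0.13 and 1.02 ± 0.15. The median change over this list was 0.59 in WT and 1.02 in HT, against -0.01 and -0.02 over all genes tested.

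Among 12 serotonin receptor genes tested, 2 rose and 4 fell in WT and 1 rose and 3 fell in HT. With 12 genes, neither an excess nor a lack against the background can be read from the 6 and 4 called. *Htr3a*, the ion channel receptor, rose by 0.81 ± 0.13 in WT and 0.76 ± 0.15 in HT, and *Htr1b*, an autoreceptor of serotonin terminals, fell by 0.50 ± 0.13 and 0.54 ± 0.13. *Htr2c* fell by 0.41 ± 0.08 and 0.68 ± 0.13, and *Htr7* by 0.42 ± 0.08 and 0.59 ± 0.10, while *Htr4* fell by 0.52 ± 0.20 in WT. Of 8 specification factors tested, 1 rose and 3 fell in WT and 2 rose and 3 fell in HT: *Insm1*, a gene of newborn neurons, fell by 2.50 ± 0.15 and 2.33 ± 0.15, *Gata2* rose by 1.19 ± 0.16 and 1.00 ± 0.35, *Nkx2-2* fell by 0.83 ± 0.22 in WT and *Gata3* by 0.74 ± 0.16 in HT. On the kynurenine route, which diverts tryptophan from serotonin, 2 of 7 genes rose and 1 fell in WT and 2 of 8 rose and 2 fell in HT, with *Qprt* up by 1.46 ± 0.25 and 1.80 ± 0.31 and *Ido2* down (-1.15 ± 0.18 and -1.34 ± 0.21), *Kyat1* up by 0.37 ± 0.09 and 0.36 ± 0.13, and *Aadat* down in HT (-1.73 ± 0.43). Of the other monoamine enzymes and transporters, 3 of 10 rose and 1 fell in WT and 5 of 11 rose in HT, among them *Aldh1a1* (1.52 ± 0.23 and 1.80 ± 0.14), *Aldh2* (1.39 ± 0.08 and 1.54 ± 0.18) and, in HT, *Slc22a2* (0.86 ± 0.27) and *Th* (0.65 ± 0.16), with *Slc6a2* lower in WT (-0.86 ± 0.34).

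With all libraries kept under their labels, *Tph2* and *Slc6a4* varied more among adult mice of the same group than among pups. *Tph2* read 154, 189, 211, 170 and 220 in HT-P10 and 194, 175, 202, 180 and 221 in WT-P10, with coefficients of variation of 14.5% and 9.40%. At P120 it read 71.5, 87.5, 271, 341 and 308 in WT-Veh-P120, 257, 68.8, 290, 440 and 63.3 in WT-Flx-P120, 133, 307, 226, 354 and 262 in HT-Veh-P120 and 115, 256, 176, 273 and 348 in HT-Flx-P120. The coefficient of variation was then 32.9% to 71.4% in a group, against a median of 10.5% to 21.2% over genes of 100 to 1000 normalized counts in the same groups. The 4 lowest values were in libraries labelled WT, 2 with vehicle and 2 with fluoxetine, 1 of them (87.5) being the library labelled WT-Veh-P120 replicate 2, whose *Arid1b* was at an HT level.

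*Slc6a4* spread further. It read 231, 276, 245, 260 and 287 in WT-P10 and 232, 292, 307, 308 and 299 in HT-P10. At P120 it read 56.1, 116, 329, 393 and 240 in WT-Veh-P120, 251, 34.1, 218, 325 and 37.1 in WT-Flx-P120, 236, 421, 257, 271 and 247 in HT-Veh-P120 and 205, 527, 327, 273 and 657 in HT-Flx-P120. The highest P120 library held 19.2 times the lowest. *Fev*, the least abundant of the 10, read 3.03 to 36.5 over the 20 P120 libraries and 5.85 to 19.8 at P10, with coefficients of variation of 37.5% to 48.7% in a group at P120 and 31.4% and 31.8% at P10. The coefficient for *Slc6a4* was 8.75% and 11.0% at P10 and 26.7% (HT-Veh-P120) to 75.9% (WT-Flx-P120) at P120. In HT-Veh-P120 it rests on replicate 2, whose *Arid1b* was at a WT level. The other 4 libraries of that group read 253 ± 15.1 (SD), against 288 ± 31.5 in HT-P10. A wider spread of *Slc6a4* in adults therefore does not hold for these 4.

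Of the 4 libraries lowest in *Tph2*, 3 were also low for genes of the hindbrain and spinal cord. A list of 17 such genes, mainly *Hox* genes, of which 16 were measured, summed to 305 and 490 normalized counts in WT-Flx-P120 replicates 2 and 5 and to 586 in WT-Veh-P120 replicate 1, against 1699 to 4687 in the other 17 P120 libraries, among them WT-Veh-P120 replicate 2 with 1918. *Slc6a4* in these 3 libraries was 34.1, 37.1 and 56.1. By group the sum ranged from 2233 to 4687 in HT-Flx-P120, 305 to 4204 in WT-Flx-P120, 1699 to 4161 in HT-Veh-P120 and 586 to 3778 in WT-Veh-P120. At P10 it ranged from 315 to 1976 in HT and 979 to 2011 in WT, and HT-P10 replicate 1, the lowest, listed 6 of the 16 genes at 0, among them *Hoxb8* and *Hoxc5*, while its *Tph2* and *Slc6a4* were 154 and 232. At P120 only *Hoxd4* in WT-Flx-P120 replicate 2 was listed at 0.

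Relations were computed over libraries as deviations from the group mean on the log2(value + 1) scale, 16 in all, with two-sided p from 100000 permutations within groups. *Tph2* and *Slc6a4* had a Pearson r of 0.92 (permutation p = 3e-05, adjusted p = 0.00012) and a Spearman rho of 0.85 (permutation p = 0.00011, adjusted p = 0.00044) over 30 libraries. *Tph2* was as closely related to *Ddc* (r = 0.87, permutation p = 1e-05, the smallest possible, adjusted p = 8e-05; rho = 0.89, p = 1e-05) and to *Slc18a2* (r = 0.88, p = 1e-05, adjusted p = 8e-05; rho = 0.81, p = 7e-05). The mean of the hindbrain and spinal cord list was related to *Slc6a4* (r = 0.74, permutation p = 3e-05, adjusted p = 0.00012; rho = 0.73, p = 9e-05) and to *Tph2* (r = 0.63, p = 0.00098, adjusted p = 0.00314; rho = 0.58, p = 0.00281). *Tph2* and *Maob* had an r of 0.02 (permutation p = 0.907; rho = 0.02, p = 0.898), and *Tph2* and *Slc22a3* ran in opposite directions (r = -0.64, permutation p = 0.00789, adjusted p = 0.0158; rho = -0.57, p = 0.0126). *Tph2* and *Fev* did not pass (r = 0.44, permutation p = 0.0592, adjusted p = 0.0729; rho = 0.44, p = 0.0476).

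Within the 20 P120 libraries 12 of 16 relations passed, as over all 30, and within the 10 P10 libraries 0 of 16 did. At P120 alone r was 0.92 for *Tph2* with *Slc6a4*, 0.92 for the hindbrain list with *Slc6a4* and 0.79 for that list with *Tph2*, and at P10 alone it was 0.52, 0.77 and 0.45, none passing the correction. Without the 2 libraries farthest from the median, *Tph2* and *Slc6a4* kept an r of 0.87 and the hindbrain list and *Slc6a4* an r of 0.79. The 3 P120 libraries low in hindbrain genes stood apart from the others, so the relations were also computed without them, in a setting chosen after seeing the data. *Tph2* then still followed *Slc6a4* (r = 0.79), *Ddc* (r = 0.80) and *Slc18a2* (r = 0.84). The hindbrain list followed *Tph2* with an r of 0.22 (permutation adjusted p = 0.115) and *Slc6a4* with an r of 0.37 (permutation adjusted p = 0.00096). This setting kept the P10 libraries, and the other P120 libraries were not examined alone. How far the relations of the hindbrain list rest on these 3 libraries is therefore not settled.

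*Th*, the enzyme gene of dopamine and noradrenaline neurons, was also related to *Ddc* (r = 0.57, permutation p = 0.00949, adjusted p = 0.0158; rho = 0.48, p = 0.0259) and *Gch1* (r = 0.54, p = 0.00366, adjusted p = 0.00837; rho = 0.54, p = 0.00569), and not beyond the threshold to *Slc18a2* (r = 0.33, permutation p = 0.173; rho = 0.28, p = 0.211). By likeness alone, the 10 genes of 17955 with the highest r to *Tph2* over the 30 libraries after group means were removed were *Zfp521*, *Cep76*, *Megf11*, *Zic5*, *Neurod1*, *Gm13944*, *Pld5*, *Kank2*, *Car8* and *Chd7*, with r from 0.97 to 0.94. *Slc6a4* ranked 27, *Slc18a2* 80 and *Ddc* 96. These points share their libraries and composition, and within P10 alone the r of these 10 genes ranged from -0.23 for *Chd7* to 0.85 for *Cep76*.

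**Figure D3:**
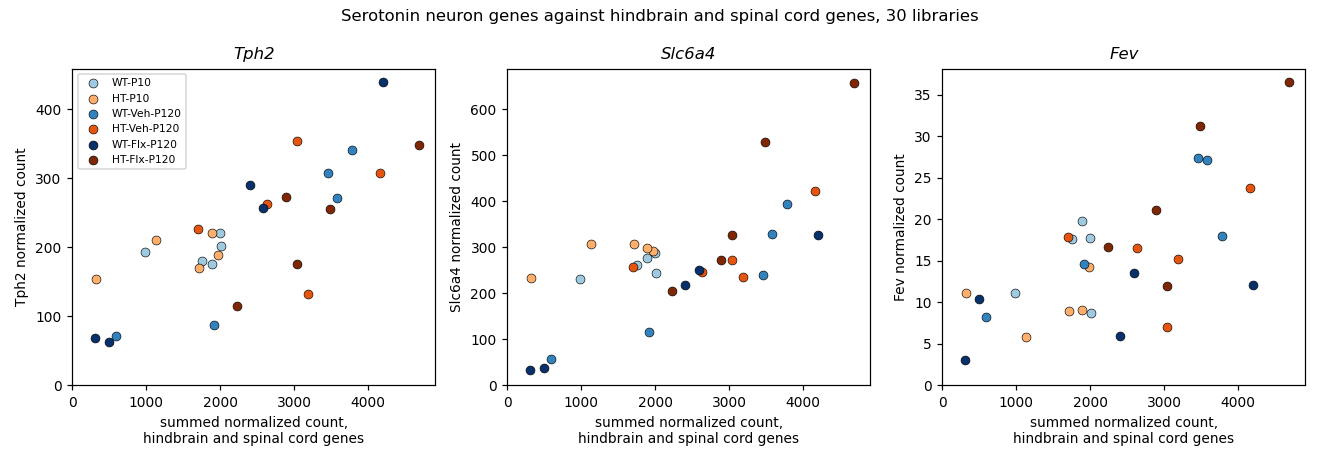
Normalized counts of *Tph2*, *Slc6a4* and *Fev* (vertical axes) against the summed normalized count of 16 hindbrain and spinal cord genes (horizontal axis), 1 point per library. WT-Flx-P120 replicates 2 and 5 and WT-Veh-P120 replicate 1 lie at sums of 305, 490 and 586, with *Slc6a4* at 34.1, 37.1 and 56.1.

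The next comparison asked whether loss of an *Arid1b* copy is accompanied by a change in these genes in untreated pups. None of the 10 passed in HT-P10 against WT-P10 by limma, against 0.0224% of all genes tested (4 genes), with 2249 of 17896 genes at an unadjusted p under 0.05. *Slc6a4* differed by 0.14 ± 0.09 on the log2 scale (adjusted p = 0.515) and *Tph2* by -0.05 ± 0.11 (adjusted p = 0.860). The smallest adjusted p among the 10 was that of *Slc22a3* (0.423), which read 275 to 346 in HT and 228 to 321 in WT. None of the pathway lists held a gene past the threshold.

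In adults given vehicle, none of the 10 passed in HT-Veh-P120 against WT-Veh-P120, replicates 1, 3, 4 and 5 of each, and 0% of all genes did by limma (229 of 17784 at an unadjusted p under 0.05). *Slc6a4* read 236, 257, 271 and 247 in these HT libraries and 56.1, 329, 393 and 240 in WT, a log2 difference of 0.30 ± 0.49, and *Tph2* differed by 0.11 ± 0.47 (adjusted p = 1.00 for both). The WT libraries enclose the HT ones for *Slc6a4*. The standard error for *Slc6a4* was 0.49, against 0.09 at P10, so that a difference of the size seen here was not detectable. *Arid1b* itself did not pass by limma in this comparison, though its groups did not overlap (log2 -0.49 ± 0.13). The lack of calls among the 10 is therefore little evidence that they were unchanged. With all 5 and 5 libraries, which include the 2 that go against their labels, none of the 10 passed either.

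The comparison of fluoxetine with vehicle within a genotype asked for a lasting trace of early exposure in the drug's own pathway. In HT, none of the 10 passed by limma, and 0% of all genes did (4082 of 17676 genes at an unadjusted p under 0.05). *Slc6a4*, the gene of the drug's target, differed by 0.38 ± 0.29 (adjusted p = 0.367), with overlapping groups, and *Tph2* by -0.16 ± 0.31 (adjusted p = 0.736). *Maoa* read 467, 562, 486, 619 and 774 with fluoxetine and 522, 825, 919, 1142 and 1055 with vehicle, a log2 difference of -0.59 ± 0.21 (adjusted p = 0.215, exact permutation p = 0.0476), and *Slc29a4* read 1603, 1865, 1579, 1800 and 1812 against 1512, 1349, 1604, 1023 and 1037, a difference of 0.43 ± 0.15 (adjusted p = 0.215, exact permutation p = 0.0238). Within HT-Veh-P120 the GC slope was 0.42 in replicate 1 and -0.39 in replicate 4, the libraries with the lowest and the highest *Maoa*. After the GC correction the differences were -0.09 for *Maoa* and 0.08 for *Slc29a4*. Without HT-Veh-P120 replicate 2, 0 of 10 passed and *Slc6a4* differed by 0.53 ± 0.29 (limma, adjusted p = 0.275).

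In WT, none of the 10 passed in WT-Flx-P120 against WT-Veh-P120, and 0% of all genes did by limma (4504 of 17865 at an unadjusted p under 0.05). No gene of the 10 had non-overlapping groups, against 6.41% of all genes. *Slc6a4* differed by -0.62 ± 0.71 (adjusted p = 0.596) and *Tph2* by -0.06 ± 0.60 (adjusted p = 0.957), both with 2 low libraries on each side. *Maob* read 798, 830, 818, 762 and 886 with fluoxetine and 782, 669, 708, 637 and 667 with vehicle, a difference of 0.24 ± 0.08 (adjusted p = 0.110, exact permutation p = 0.0159), and passed when WT-Veh-P120 replicate 1 was left out (adjusted p = 0.0438), when 1400 genes passed in all. *Fev* read 3.03 to 13.5 with fluoxetine and 8.28 to 27.4 with vehicle (-1.04 ± 0.42, adjusted p = 0.159). Without WT-Veh-P120 replicate 2, 0 of 10 passed, *Slc6a4* differed by -0.79 ± 0.77 (limma, adjusted p = 0.549) and *Tph2* by -0.32 ± 0.63 (adjusted p = 0.783).

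After fluoxetine, these genes were called between the genotypes about as often as all genes, in a comparison in which most genes differed. The GC slopes of the 2 groups did not overlap, as given above. In HT-Flx-P120 against WT-Flx-P120, 6 of 10 passed by limma, against 63.7% of all genes, 4 higher in HT (33.1% of all genes) and 2 lower (30.5%). Groups did not overlap for 3 of the 10, against 48.5% of all genes. The median change over the 10 was 0.19, and 0.02 over all genes.

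*Slc29a4* read 1603, 1865, 1579, 1800 and 1812 in HT-Flx-P120 and 826, 756, 1030, 1214 and 759 in WT-Flx-P120, and was higher by 0.94 ± 0.13 (limma, adjusted p = 8.28e-05). *Maoa* read 467 to 774 in HT and 992 to 1219 in WT and was lower by 0.89 ± 0.13 (log2 -0.89, adjusted p = 0.000116). *Maob* read 481, 551, 598, 645 and 658 in HT and 798, 830, 818, 762 and 886 in WT (log2 -0.49 ± 0.10, adjusted p = 0.000983). For these 3 genes every HT library lay on 1 side of every WT library.

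*Slc6a4* was higher by 1.61 ± 0.62 (3.06-fold, adjusted p = 0.0367), though the groups overlapped and an exact permutation test gave p = 0.0714. *Fev* was higher by 1.33 ± 0.41 (adjusted p = 0.0124), and *Gch1* by 0.67 ± 0.22 (adjusted p = 0.0175), with 104 to 144 normalized counts in HT and 54.3 to 123 in WT. *Tph2* differed by 0.35 ± 0.51 (adjusted p = 0.564). The call on *Slc6a4* was lost when limma was fitted without the intensity trend (adjusted p = 0.0563) and without HT-Flx-P120 replicate 2, 3 or 5 or WT-Flx-P120 replicate 2 or 5, with log2 differences of 1.17 to 1.65 and adjusted p of 0.0532 to 0.0910.

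The longest transcripts of *Maoa* and *Maob*, lower in HT, had a GC content of 40.4% and 45.3%, and those of the genes higher in HT 45.9% (*Gch1*), 52.2% (*Slc6a4*), 60.1% (*Slc29a4*) and 63.2% (*Fev*). Those of the genes not called had 46.4% (*Tph2*), 47.2% (*Slc18a2*), 48.9% (*Ddc*) and 50.1% (*Slc22a3*). After the correction for GC content and length, 1 of 10 passed, *Gch1* at 1.00 (adjusted p = 0.00327), the differences of *Maoa* and *Maob* were -0.01 and -0.04, that of *Slc29a4* 0.21, of *Fev* 0.65 and of *Slc6a4* 1.32 (adjusted p = 0.115), and 6581 genes passed in all. With the hindbrain list as a covariate, *Slc6a4* differed by 0.14 (adjusted p = 0.648), *Fev* by 0.84 (adjusted p = 0.134) and *Gch1* by 0.26 (adjusted p = 0.246), while *Maoa* (-0.99), *Maob* (-0.44) and *Slc29a4* (0.71) passed, and *Tph2* (-0.81, adjusted p = 0.0284) and *Slc18a2* (-0.94, adjusted p = 0.00916) were then lower in HT. Of the 16 hindbrain genes, 6 were higher and 0 lower in HT-Flx-P120 as deposited, with a median of 1.57. None of the 10 passed in all 3 of these fits.

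**Figure D4:**
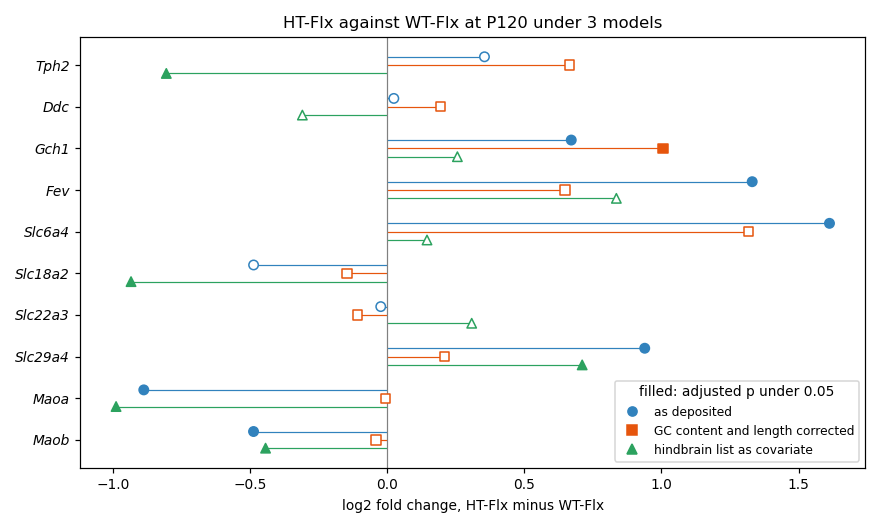
Log2 difference of HT-Flx-P120 from WT-Flx-P120 (horizontal axis) of the 10 genes as deposited, after GC content and length correction, and with the hindbrain list as a covariate, filled where the adjusted p was under 0.05, with lines drawn from 0. *Maoa* moved from -0.89 to -0.01 with the GC correction and *Slc6a4* from 1.61 to 0.14 with the covariate.

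The interaction of genotype and fluoxetine over the 20 P120 libraries called 3 of 10 genes by limma, against 27.3% of all genes, 1 with a positive interaction (15.8% of all genes) and 2 with a negative one (11.5%). *Slc29a4* had an interaction of 0.78 ± 0.23 (adjusted p = 0.0347), *Maoa* of -0.80 ± 0.24 (adjusted p = 0.0347) and *Maob* of -0.47 ± 0.16 (adjusted p = 0.0425). *Slc6a4* (1.00 ± 0.83, adjusted p = 0.354), *Fev* (1.54 ± 0.58, adjusted p = 0.0509) and *Tph2* (-0.09 ± 0.74, adjusted p = 0.932) did not pass. Without the 2 libraries that go against their labels, after the GC correction, or with the hindbrain covariate, 0 of 10 passed, and the call on *Maob* was lost without the intensity trend (adjusted p = 0.0505). The 3 calls were also all lost, with 0 genes called in all, without any 1 of 8 of the 20 libraries, namely HT-Flx-P120 replicate 1, WT-Flx-P120 replicates 2 and 3, HT-Veh-P120 replicates 4 and 5 and WT-Veh-P120 replicates 2, 3 and 4.

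Counts in the lists around these genes stand against 63.7% of all genes called in HT-Flx-P120 against WT-Flx-P120, and the GC correction was not examined for them. In this comparison 2 of 12 receptor genes were higher and 6 lower, with *Htr2a* at -1.05 ± 0.23, *Htr1b* at -0.74 ± 0.20, *Htr1f* at -0.71 ± 0.26 and *Htr2c* at -0.67 ± 0.14 (log2). All 7 tetrahydrobiopterin genes passed, 5 higher and 2 lower, with *Gchfr* at 1.38 ± 0.23, *Spr* at 0.83 ± 0.09 and *Pcbd1* at 0.66 ± 0.13. Of 8 specification factors 4 were higher and 0 lower, with *En1* at 1.33 ± 0.37, *Lmx1b*, which serotonin neurons require, at 1.25 ± 0.35, *Gata2* at 0.85 ± 0.23 and *Nkx2-2* at 0.77 ± 0.14. Of 7 kynurenine route genes 2 were higher, *Qprt* at 1.03 ± 0.24 and *Kyat1* at 0.49 ± 0.11, and 1 lower, *Kyat3* at -0.48 ± 0.16. Of 10 other monoamine genes 4 were higher, *Dbh*, the noradrenaline enzyme gene, at 1.66 ± 0.54, *Slc22a2* at 1.06 ± 0.23, *Th* at 0.98 ± 0.14 and *Aldh2* at 0.84 ± 0.10. Of the markers of other cells, 2 of 3 noradrenaline genes were higher, 2 of 5 dopamine genes were higher and 1 lower, 2 of 6 astrocyte genes were higher and 3 lower, 3 of 7 endothelial and pericyte genes were higher and 2 lower, 1 of 6 choroid plexus genes was higher and 1 lower, and 0 of 2 pineal genes passed. In the fluoxetine and vehicle comparisons within a genotype none of these lists held a gene past the threshold. In the interaction, against 27.3% of all genes, 4 of 7 tetrahydrobiopterin genes passed, *Gchfr* at 1.28 ± 0.38, *Spr* at 0.75 ± 0.22, *Pcbd1* at 0.63 ± 0.20 and *Pts* at -0.58 ± 0.19. Of 12 receptors 2 passed, *Htr1a* at 0.49 ± 0.17 and *Htr2c* at -0.60 ± 0.20, and 1 gene passed in each of the specification (*Lmx1b*, 1.37 ± 0.50), kynurenine (*Kyat1*, 0.57 ± 0.17) and other monoamine lists (*Aldh2*, 0.72 ± 0.22). These interaction calls were lost with all others in the settings named above.

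Within a library, the transporter gene can be set against the hydroxylase gene, which marks serotonin neurons. This ratio was chosen after the values were seen and is given without a test. *Slc6a4* over *Tph2* was 1.19 to 1.57 in WT-P10 and 1.36 to 1.81 in HT-P10. At P120 it was 0.78 to 1.32 in WT-Veh-P120 and 0.77 to 1.78 in HT-Veh-P120. It was 0.50 to 0.98 in WT-Flx-P120 and 1.00 to 2.06 in HT-Flx-P120, so that the fluoxetine groups only just did not overlap. Between these groups 48.5% of all genes did not overlap either. The mean log2 difference of the ratio was 1.26, and 0.65 after the GC correction. Overlap of the ratio after that correction was not examined.

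**Figure D5:**
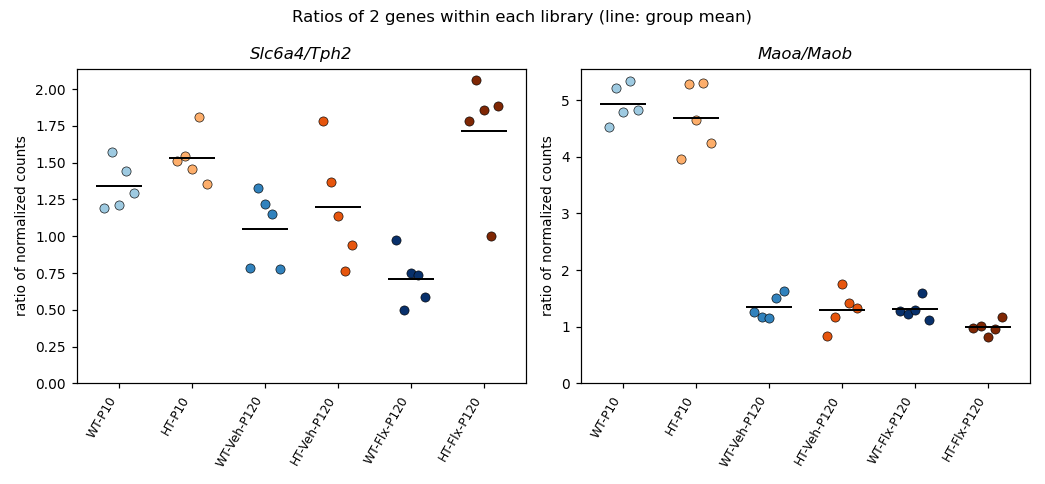
Ratio of normalized counts of *Slc6a4* to *Tph2* and of *Maoa* to *Maob* (vertical axes, linear from 0) in each library by group, with the group mean as a line. *Maoa*/*Maob* was 3.96 to 5.33 in the P10 libraries and 0.81 to 1.75 at P120.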

How the data were processed

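Whole-brain poly-A RNA was sequenced by the authors on a NovaSeq, quantified with Salmon 1.1.0 against GRCm38 with its GC bias correction, summed to genes with tximport and normalized with DESeq2 1.30.1 (versions from the submitters' processing notes). The deposited values are a normalized signal per gene, not whole reads, so depth is unknown, no counting interval is given, and precision comes from the spread between mice. Of 19737 identifiers, 99.9% were matched to symbols. The 10 genes, the lists and the tests were chosen with earlier results of these data known.

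Values were tested as log2(value + 1) with limma 3.58.1 in R 4.3.3, with an intensity trend, over genes of mean at least 10 in the libraries compared. P-values were adjusted over all genes by the Benjamini-Hochberg method at 0.05. Fold changes are on this scale and understate low genes. Exact p-values are two-sided permutation tests over libraries. HT-Veh-P120 against WT-Veh-P120 used replicates 1, 3, 4 and 5. All 10 genes are named in each comparison or counted, and of each list up to 4 called genes by size of change, with the same gene's value in the other genotype beside it where it was called there. The GC correction subtracted each library's mean deviation in 10 by 10 bins of GC content and transcript length, and it, the covariate fit and the ratios were added after seeing the data. Scripts were tested on simulated data. Alternatives were a pseudocount of 5, no filter, median-of-ratios factors, no trend, the replicate number as a block, and each library or both libraries in doubt left out. Some list genes are not reported here by name.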

Additional observations from a re-analysis of the deposited data

Results flagged for a closer look

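In 4 of 60 tests, 1 library stood apart from the other 4 of its group, where chance gives about 1 in 20. *Ddc* was 749 normalized counts in HT-Flx-P120 replicate 5, against 427 to 487 in the others. *Slc6a4* was 232 in HT-P10 replicate 1, against 292 to 308, and 421 in HT-Veh-P120 replicate 2, the library with a WT level of *Arid1b*, against 236 to 271. *Slc18a2* was 714 in HT-P10 replicate 1, against 559 to 596.

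The test of the difference between the genotypes in the effect of fluoxetine passed for *Maoa* (interaction -0.80, limma, adjusted p = 0.0347), *Maob* (-0.47, adjusted p = 0.0425) and *Slc29a4* (0.78, adjusted p = 0.0347), in an interaction that called 27.3% of all genes. None of the 3 passed after the GC correction, with the hindbrain covariate, without the 2 libraries in doubt, or without any 1 of 8 of the 20 libraries.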

How the results depend on the processing

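Counts of the 10 genes called stayed within 1.5 times the main count under the other pseudocount, no filter, median-of-ratios size factors and no trend. Replicate numbers were not treated as pairs. Same-number correlations lay between -0.30 and 0.41, and in no comparison was each over 0.1. Their mean in HT-Flx-P120 against HT-Veh-P120 was 0.18, against -0.04 for unlike numbers. Whether mice of the same number share anything was not tested. With the replicate block 1 gene, *Maoa*, was called in HT-Flx-P120 against HT-Veh-P120 (adjusted p = 0.0361; 1355 of all genes, against 0), and *Slc6a4* was not called in HT-Flx-P120 against WT-Flx-P120 (adjusted p = 0.0694, and 0.0563 without the trend). After the GC correction 1 was called in HT-Flx-P120 against WT-Flx-P120 (6581 of all genes, against 11330), 0 in the interaction of genotype and fluoxetine and 8 in HT from P10 to P120. The interaction gave 0 without the libraries in doubt and 0 with the hindbrain covariate, and 0 to 4 with each library left out; WT-Flx-P120 against WT-Veh-P120 gave 0 to 1. Over all genes, the interaction called 4852, 0 in these 3 settings and 0 to 7667 with each library left out, P10 called 4, 7 with the block and 7 with the covariate, and age by genotype called 0, 2 without the trend. The causes were not tested.

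Signs turned as follows. With the hindbrain covariate, *Tph2* was -0.016 in HT-Veh-P120 against WT-Veh-P120, 0.53 in WT-Flx-P120 against WT-Veh-P120 and -0.81 in HT-Flx-P120 against WT-Flx-P120, and *Slc6a4* was 0.11 in WT-Flx-P120 against WT-Veh-P120 and -0.060 in the interaction. With the GC correction the interaction was 0.024 for *Maoa* and 0.15 for *Tph2*, and *Tph2* from P10 to P120 in WT was 0.0033. Without the libraries in doubt *Tph2* was 0.24 in the interaction and 0.13 from P10 to P120 in WT. With each library left out, *Tph2* ranged from -0.11 to 0.020 at P10, -0.41 to 0.37 between vehicle groups, -0.38 to 0.072 for fluoxetine in HT, -0.40 to 0.29 for fluoxetine in WT, -0.45 to 0.25 in the interaction and -0.35 to 0.20 with age in WT, and *Slc6a4* from -0.32 to 0.61 between vehicle groups and -0.18 to 0.028 with age in HT.

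Of 16 relations, 12 passed, 0 at P10 alone and 6 without the 3 libraries low in hindbrain genes. At P10 alone r turned for *Tph2* with *Slc18a2* (-0.79), *Maoa* (-0.18), *Fev* (-0.37) and *Slc29a4* (-0.31) and for *Th* with *Slc18a2* (-0.30). For *Tph2* with *Maob* it was -0.0055 without the libraries in doubt and -0.10 to 0.13 with each library left out.

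With 5 mice a group, the spread of *Tph2*, *Slc6a4* and *Fev* was above the median of other genes in each P120 group. In HT-Veh-P120 this rests, for *Slc6a4*, on replicate 2, a library in doubt. For *Slc6a4* the standard error was 0.29 for fluoxetine in HT and 0.71 for fluoxetine in WT, on the log2 scale. Adult differences near such an error could not be called. The smallest detectable difference was not computed for these genes.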
